A study of Homo sapiens with 6 samples.

Results

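BH3-only genes encode the proapoptotic arm of the BCL2 family, and 10 of them were followed here out of the 33981 genes in the deposited table. They were chosen by name and not by a measured value, though earlier results of these data were known. The genes are BCL2L11 (encoding BIM), BID, BAD, BBC3 (PUMA), PMAIP1 (NOXA), BMF, BIK, HRK, BNIP3 and BNIP3L (NIX). The cells were THP-1, an established monocytic line derived from an acute myeloid leukemia (AML). All 6 samples carried a lentiviral vector delivered on retronectin, described as expressing a short hairpin RNA (shRNA) from a U6 promoter together with EGFP. The 3 control samples carried a scrambled shRNA and the 3 knockdown samples an shRNA against NFIC, a transcription factor of the nuclear factor I family. GFP-positive cells were sorted 4 days after infection for bulk mRNA sequencing. A single hairpin against NFIC was sequenced, so an effect of lower NFIC and an effect of that hairpin alone cannot be told apart. Whether the replicates were separate cultures is not stated in the labels, and p-values measure the spread between these samples only.

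BH3-only proteins sense stress and share with the rest of the BCL2 family one short helix, the BH3 domain. The antiapoptotic members (BCL2, BCL-XL, BCL-W, MCL1, BCL2A1) hold that helix in a groove. The effectors BAX and BAK permeabilize the outer mitochondrial membrane once they are activated. Direct activators such as BIM, tBID and PUMA can bind the effectors themselves, whereas sensitizers such as BAD, NOXA, BMF, BIK and HRK mainly occupy the antiapoptotic groove. BNIP3 and NIX carry an atypical BH3 domain and are best known as receptors that mark mitochondria for autophagy. In myeloid leukemia cells this family sets the response to drugs that block BCL2 or MCL1.

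The knockdown was carried by the hairpin named sh494 in the study. Its target is shown because every difference below depends on it, with the 7 bases that pair with the guide seed (guide bases 2 to 8) in capitals.
sh494 target: gatggacaagtcaCCATTCAa
The site lies at chr19:3449042-3449062 on the plus strand of GRCh38, in the coding part of exon 7 of the canonical NFIC transcript, and 8 of 11 annotated NFIC transcripts hold it exactly. No transcript of a BH3-only gene held an exact match. The closest members differed from the target at 7 bases (BNIP3L) and the most distant at 9. The seed match alone was present in 1 of 11 BID transcripts and in the 1 transcript of BIK.

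Promoters of 8 of the 10 genes were found among the RefSeq promoters of GRCh38.p14. BIK and BNIP3L had no entry. Shown are those of BCL2L11, the gene with the largest difference, and of BNIP3, the gene whose replicates disagreed most, each 5′ to 3′ upstream of a start site and without annotated exon bases. Capitals mark motif matches.
BCL2L11, chr2:111120664-111120913, plus strand: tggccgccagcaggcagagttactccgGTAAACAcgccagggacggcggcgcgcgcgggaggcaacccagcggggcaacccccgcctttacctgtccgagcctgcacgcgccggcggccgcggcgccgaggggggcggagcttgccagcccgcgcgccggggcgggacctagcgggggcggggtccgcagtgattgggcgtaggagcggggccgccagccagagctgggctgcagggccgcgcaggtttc
BNIP3, chr10:131981968-131982173, minus strand: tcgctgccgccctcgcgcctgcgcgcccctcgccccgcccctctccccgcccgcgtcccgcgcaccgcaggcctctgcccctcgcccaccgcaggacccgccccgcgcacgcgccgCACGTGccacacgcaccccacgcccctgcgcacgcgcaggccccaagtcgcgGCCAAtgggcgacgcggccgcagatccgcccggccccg
In the BCL2L11 promoter the capitals are GTAAACA, the site bound by FOXO factors, which begins 223 bases before the start site. The same letters were found on either strand in 3.42% of the 35116 promoters searched, and in no other BH3-only promoter. In the BNIP3 promoter CACGTG, an E-box, begins 134 bases before the start site and contains the hypoxia response core ACGTG on both strands. GCCAA, the reverse complement of TTGGC, the core bound by nuclear factor I, follows at 82 bases before the start site. The hypoxia core was also found in promoters of BBC3 and BID, each time inside an E-box, and 21.4% of all promoters hold the core and 7.26% the E-box. The nuclear factor I core was found in promoters of BID, BMF, BNIP3 and PMAIP1, which is 4 of the 8 genes searched. Some genes have several promoter windows, and 6 of the 14 windows held that core, beside 45.6% of all promoters. The full nuclear factor I site, made of that core and its reverse complement after 5 spacer bases, was in 0.0285% of all promoters and in none of the 14 windows of these genes. The 250 bases upstream of the BCL2L11 start site were 76.8% GC with 34 CpG dinucleotides, against medians of 58.0% and 11 over all promoters. These matches describe letters in a window and were not tested for binding.

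Total counts were between 20369543 and 24809720 per sample, so that a floor of 3 counts equals 0.122 to 0.146 CPM (the count relative to the library size). The floor covers counting error only, since reads were not tagged by molecule. NFIC had 911, 1019 and 904 counts in scrambled replicates 1, 2 and 3, against 399, 518 and 493 in NFIC shRNA replicates 1, 2 and 3. The groups did not overlap, and 50.2% of the control level remained (log2 fold change -0.99, standard error 0.072, edgeR adjusted p = 3.73e-09). The monocytic markers had summed levels of 1833 to 1971 CPM in scrambled and 1843 to 1997 CPM in NFIC shRNA samples. Of these 11 markers ITGAM, LYZ and CD14 rose, with log2 fold changes of 0.99, 0.72 and 0.65. CD68, CD4 and CD33 fell, with -1.01, -0.71 and -0.96, as did CSF1R and CD36. Of 12 markers of T, B, erythroid and megakaryocytic cells, 5 were not analysed here and 4 passed the filter on low counts. The summed level of the markers was 11.97 to 12.7 CPM in scrambled and 5.19 to 6.11 CPM in NFIC shRNA samples, with ITGA2B, CD79A and GP9 lower by log2 fold changes of -1.83, -0.86 and -0.84.

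BCL2L11 and BNIP3L transcripts about doubled with NFIC shRNA, BID and BAD rose by smaller amounts, and BMF, BBC3 and PMAIP1 fell. BIK overlapped between the groups, BNIP3 was split among the knockdown replicates, and HRK was barely detected. With edgeR's quasi-likelihood test, 9 of the 10 genes passed the filter on low counts. At an adjusted p under 0.05 over all 19182 genes tested, 4 of them were higher and 3 lower. The comparison changed much of the transcriptome, with 59.9% of all tested genes called, 29.6% higher and 30.3% lower, and the share of BH3-only genes called is to be read against that. Samples of the groups did not overlap for 8 of the 9 genes, 4 in each direction, against 65.2% of all tested genes, 32.2% above and 33% below. The median log2 fold change was 0.125 over these 9 genes and -0.0113 over all tested genes. In size, 7.9% of all tested genes had a larger absolute log2 fold change than BCL2L11 and 13.4% a larger one than BNIP3L, whereas 35.8% to 81.7% exceeded the other 6 genes apart from BNIP3. These are bulk samples, in which fewer cells that express a gene and less of its RNA per cell cannot be told apart.

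**Figure D1:**
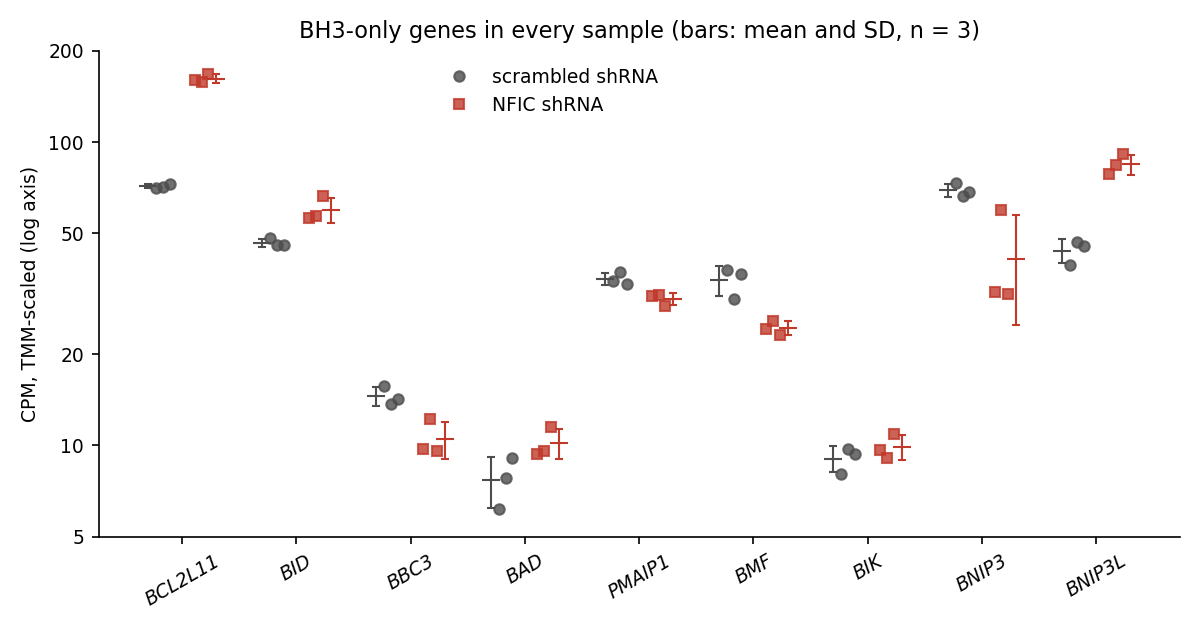
Each point is 1 sample, with scrambled shRNA as grey circles and NFIC shRNA as red squares, and the vertical log axis gives TMM-scaled CPM of 9 BH3-only genes; bars give the mean and SD of 3 replicates, and HRK is left out because it had at most 3 counts. BCL2L11 sits near 71.5 CPM in every scrambled sample and near 162 CPM in every NFIC shRNA sample, while BNIP3 has 1 NFIC shRNA sample at 59.9 CPM and the others at 32.1 and 31.5 CPM.

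Among the direct activators, BCL2L11, BID and BBC3 did not move together. BCL2L11 encodes BIM, which binds every antiapoptotic member and is held down by survival signalling. Scrambled replicates had 1527, 1755 and 1556 counts, against 3293, 3673 and 3872 with NFIC shRNA. All knockdown samples lay far above all controls, and the spread within each group was small, with coefficients of variation of 1.48% and 3.16%. The level rose from 71.5 ± 1.06 to 162 ± 5.13 CPM (SD, n = 3 per group), which is 2.26-fold. The 95% interval of its log2 fold change, 1.18, ran from 1.07 to 1.29 (edgeR adjusted p = 1.11e-11). BCL2L11 (chromosome 2, 111119378 to 111168444, plus strand, GRCh38) shares 727 exonic bases with the long noncoding RNA MIR4435-2HG on the opposite strand, which also rose, with a log2 fold change of 0.63 (edgeR adjusted p = 2.24e-07). The library kit is not described as marking strand, so reads in the shared part cannot be assigned to one gene.

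BID encodes a protein that caspases cut to its active form, tBID, and so links death receptors to mitochondria. Its counts were 1041, 1129 and 978 in controls against 1159, 1319 and 1533 in knockdown samples. After scaling, every knockdown sample was above every control, and NFIC shRNA replicate 3, at 66.4 CPM, stood above the other knockdown samples, at 56.2 and 56.8 CPM. BID rose by 0.36 on the log2 scale (standard error 0.069, edgeR adjusted p = 2.29e-04), and 50.9% of all tested genes had a larger change in either direction. BCL2L11 and BID were also picked by the study from these samples, and their direction is not independent evidence.

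BBC3 encodes PUMA, a target of p53 that, like BIM, binds all antiapoptotic members. Controls had 340, 337 and 304 counts, against 200, 283 and 221 in knockdown samples. The groups did not overlap, although NFIC shRNA replicate 2, at 12.2 CPM, came close to the lowest control at 13.7 CPM. BBC3 fell to 72.4% of the control level, a log2 fold change of -0.47 (standard error 0.11, edgeR adjusted p = 0.0014). The direction was thus opposite to that of BCL2L11 and BID. Its exons hold the microRNA genes MIR3190 and MIR3191, which lie on opposite strands of each other and have the same counts in every sample, between 9 and 24. Counts at that locus were thus not separated by strand.

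The sensitizers were also split. BMF, whose product is tethered to the actin and myosin cytoskeleton until it is released, had 819, 749 and 786 counts in controls, against 499, 596 and 535 with NFIC shRNA. No sample of one group reached the other, and scaled levels fell from 30.4 to 37.9 CPM in controls to 23.2 to 25.7 CPM in knockdown samples. Its log2 fold change was -0.52 (standard error 0.085, edgeR adjusted p = 4.90e-05). The antisense RNA BMF-AS1 shares 461 exonic bases with BMF and also fell, with a log2 fold change of -0.60 (edgeR adjusted p = 0.00244), and reads in the shared part cannot be told apart.

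PMAIP1 encodes NOXA, which binds MCL1 and BCL2A1 selectively. Counts were 753, 920 and 731 in controls against 642, 728 and 664 in knockdown samples. Scaled levels fell slightly, from 35.4 ± 1.71 to 30.4 ± 1.44 CPM (SD, n = 3 per group), without overlap between the groups. The knockdown samples kept 85.8% of the control level, a log2 fold change of -0.22 (edgeR adjusted p = 0.0117), and 68.2% of all tested genes changed by more.

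BAD encodes a protein that growth factor signalling phosphorylates and hands to 14-3-3 proteins. Controls had 133, 192 and 194 counts, against 193, 223 and 265 with NFIC shRNA. The lowest knockdown sample, at 9.36 CPM, was just above the highest control, at 9.06 CPM, and scrambled replicate 1 was low at 6.15 CPM. BAD rose by 0.41 on the log2 scale (standard error 0.137, edgeR adjusted p = 0.0166). The call rested on single samples, since the log2 fold change was 0.27 (edgeR adjusted p = 0.11) without scrambled replicate 1 and 0.31 (edgeR adjusted p = 0.0669) without NFIC shRNA replicate 3. GPR137, which shares 404 exonic bases with BAD on the opposite strand, rose as well, with a log2 fold change of 0.52 (edgeR adjusted p = 4.43e-04). Reads in the shared part cannot be told apart, and their part in the rise of BAD was not tested.

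BIK, a BH3-only protein of the endoplasmic reticulum, had 174, 239 and 201 counts in controls, against 199, 211 and 251 with NFIC shRNA. The groups overlapped. Its log2 fold change was 0.12 with a 95% interval from -0.12 to 0.37 (edgeR adjusted p = 0.363). A difference of either sign within that interval was neither shown nor excluded. HRK, known mainly from neurons, had 1, 3 and 2 counts in controls and 0 in every NFIC shRNA sample, which allows a level of up to 0.129 to 0.146 CPM there. It did not pass the filter, both groups were at or under 3 counts, and no fold change is given. Without a filter on low counts its adjusted p was 0.0817 from edgeR.

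The mitophagy receptors BNIP3 and BNIP3L, which are paralogs, differed from each other. BNIP3L, on the plus strand of chromosome 8, encodes NIX, which clears mitochondria during red cell maturation. It had 850, 1149 and 975 counts in controls, against 1616, 1944 and 2104 in knockdown samples. Every knockdown sample was well above every control, and levels rose from 43.8 ± 3.98 to 84.5 ± 6.42 CPM (SD, n = 3 per group), which is 1.93-fold. The log2 fold change was 0.95, with a 95% interval from 0.79 to 1.099 (edgeR adjusted p = 8.28e-09). PNMA2, which shares 330 exonic bases with BNIP3L on the opposite strand, fell by 2.19 on the log2 scale (edgeR adjusted p = 1.29e-10), from 322, 419 and 344 counts to 70, 90 and 74. Reads in the part shared with BNIP3L cannot be told apart either.

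BNIP3 encodes a receptor whose transcription is a classical response to low oxygen. Controls had 1583, 1638 and 1466 counts, against 662, 1390 and 727 with NFIC shRNA. NFIC shRNA replicates 1 and 3, at 32.1 and 31.5 CPM, were far below every control, whereas replicate 2, at 59.9 CPM, lay just under the lowest control at 66.6 CPM. The coefficient of variation was 39.4% in the NFIC shRNA samples and 4.91% in the scrambled samples. The log2 fold change was -0.75 with a 95% interval from -1.41 to -0.09, and the edgeR adjusted p was 0.053, so BNIP3 did not pass the threshold. DESeq2, which called 41.8% of the genes it tested, placed BNIP3 under the threshold with an adjusted p of 0.043. Without NFIC shRNA replicate 2 the log2 fold change was -1.12 (edgeR adjusted p = 7.47e-10), and it was -0.60 (edgeR adjusted p = 0.0317) without replicate 1 and -0.58 (edgeR adjusted p = 0.207) without replicate 3. The 14 annotated BNIP3 pseudogenes together had 127, 100 and 92 counts in controls, against 171, 167 and 193 with NFIC shRNA, and reads of these near-copies are uncertain.

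The replicate in which BNIP3 was high was also high in other hypoxia response genes. Of 22 such genes tested, 17 had their highest knockdown value in NFIC shRNA replicate 2, 5 in replicate 3 and 0 in replicate 1. Among the scrambled samples the corresponding numbers were 4, 9 and 9. The share of all tested genes that were highest in NFIC shRNA replicate 2 was not determined. Of the stress response genes named below, DDIT3, DDIT4, DNAJB9 and CHAC1 were also highest in that replicate, but VLDLR and NUPR1 were not. The median log2 deviation of the 22 hypoxia genes from their group mean was 0.114 in NFIC shRNA replicate 2. It was -0.0619 and -0.058 in replicates 1 and 3, against 0.609, -0.291 and -0.318 for BNIP3 in replicates 2, 1 and 3. Across the groups, 14 of the 22 genes fell, 3 rose and 5 were not called, beside 30.3% of all tested genes lower and 29.6% higher, with a median log2 fold change of -0.389. EGLN1, an oxygen-sensing hydroxylase, TPI1, a glycolytic enzyme, and AK4, a mitochondrial adenylate kinase, fell with log2 fold changes of -0.67, -0.47 and -1.08. P4HA2, PGK1 and MXI1 rose, with 0.65, 0.21 and 0.17. Without NFIC shRNA replicate 2, 15 hypoxia genes were lower and 2 higher. The part of that replicate's hypoxia genes in the BNIP3 result was not tested.

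**Figure D2:**
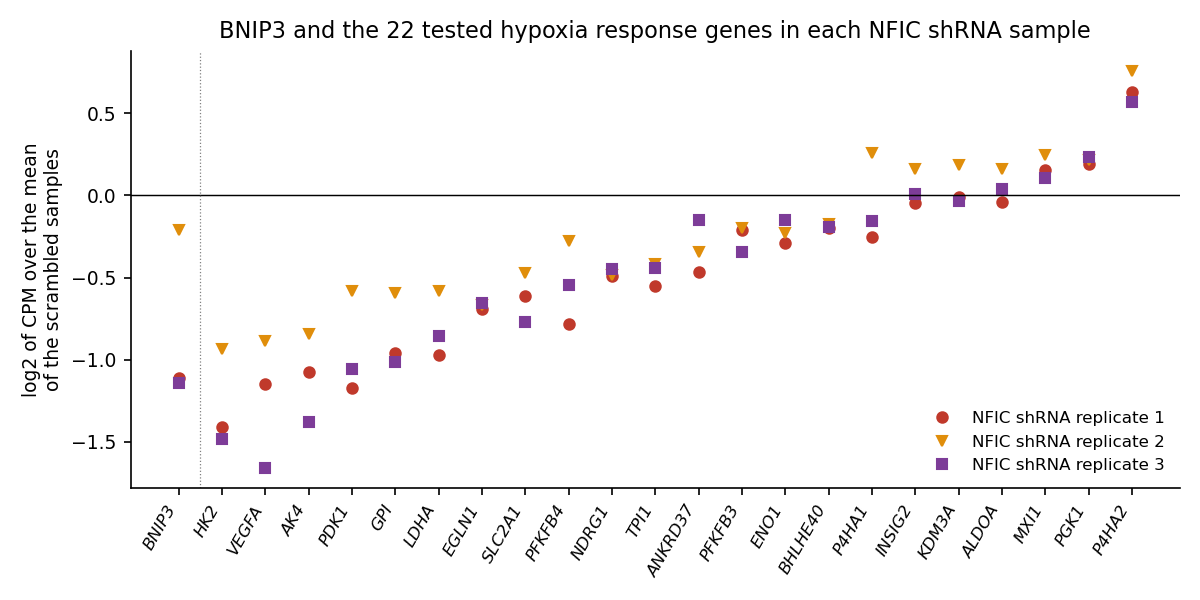
The vertical axis gives the log2 ratio of CPM in each NFIC shRNA sample to the mean of the 3 scrambled samples, for BNIP3 at the left of the dotted line and for the 22 tested hypoxia response genes at its right, ordered by fold change; the symbols stand for the 3 NFIC shRNA replicates. Replicate 2 (orange triangles) is the highest of the 3 for BNIP3 and for 17 of the 22 genes.

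**Figure D3:**
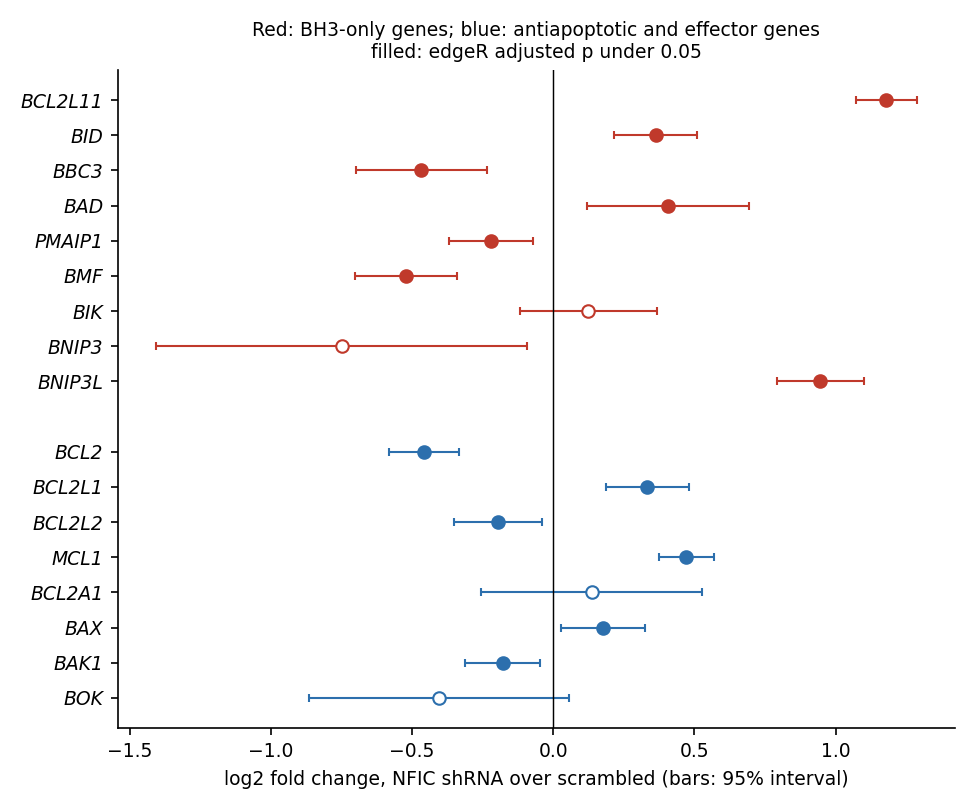
Log2 fold changes of NFIC shRNA over scrambled shRNA (horizontal axis) with 95% intervals from the edgeR fit are drawn for 9 BH3-only genes in red and 8 antiapoptotic and effector genes in blue; filled points have an adjusted p under 0.05. BCL2L11 at 1.18 and BNIP3L at 0.95 lie furthest to the right, and the interval of BNIP3 is the widest of the BH3-only genes.

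The binding partners of these proteins had smaller log2 fold changes than BCL2L11, in both directions. Of the 9 antiapoptotic and effector genes, 8 were tested, 3 rose and 3 fell, beside 29.6% and 30.3% of all tested genes, with a median log2 fold change of -0.0215. MCL1, the partner of NOXA and BIM, rose from 336 to 465 CPM (log2 fold change 0.47, edgeR adjusted p = 1.33e-07). BCL2L1, which encodes BCL-XL, rose by 0.33 (edgeR adjusted p = 5.44e-04), and BCL2, the target of venetoclax, fell by 0.46 on the log2 scale (edgeR adjusted p = 3.04e-06). The effector BAX had a log2 fold change of 0.17 (edgeR adjusted p = 0.0404), the effector BAK1 -0.18 (edgeR adjusted p = 0.0206) and BCL2L2, which encodes BCL-W, -0.20 (edgeR adjusted p = 0.0288). DESeq2 did not call these last 3 genes, with adjusted p of 0.073, 0.0662 and 0.114, and each lost its call without one or another sample. For BAX the study reports a significant change in expression from these samples, which here was called by edgeR but not by DESeq2. BCL2A1 and the BAX-like BOK overlapped between the groups, with log2 fold changes of 0.14 and -0.40 (edgeR adjusted p of 0.544 and 0.121). BCL2L10 was not tested.

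Per length, the order of the BH3-only transcripts differed between the groups. In deposited FPKM, PMAIP1 was the most abundant in scrambled samples at 15.7 ± 0.751, followed by BNIP3 at 12.9 ± 0.603, BCL2L11 at 10.6 ± 0.189, BNIP3L at 10.4 ± 0.972 and BID at 10.3 ± 0.273 (SD, n = 3). Ranges of BCL2L11 and BNIP3L overlapped, as did those of BNIP3L and BID. BIK (9.40 FPKM), BMF (6.35), BBC3 (4.52), BAD (4.44) and HRK (0.0126) came next, and BBC3 and BAD overlapped. With NFIC shRNA, BCL2L11 led at 24.3 ± 0.920 FPKM and BNIP3L followed at 20.3 ± 1.68 FPKM (SD, n = 3), with ranges separate from each other and from PMAIP1 at 13.6 FPKM. PMAIP1 overlapped BID (13.4 FPKM), and BNIP3 (7.72 FPKM) overlapped both BIK (10.4) and BAD (5.94), with BMF (4.46) and BBC3 (3.29) below. HRK was at 0. BCL2L11 thus made up 12.5% of the summed FPKM of the 10 genes in controls and 23.5% with NFIC shRNA, BNIP3L 12.3% and 19.6%, and BNIP3 15.2% and 7.44%.

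**Figure D4:**
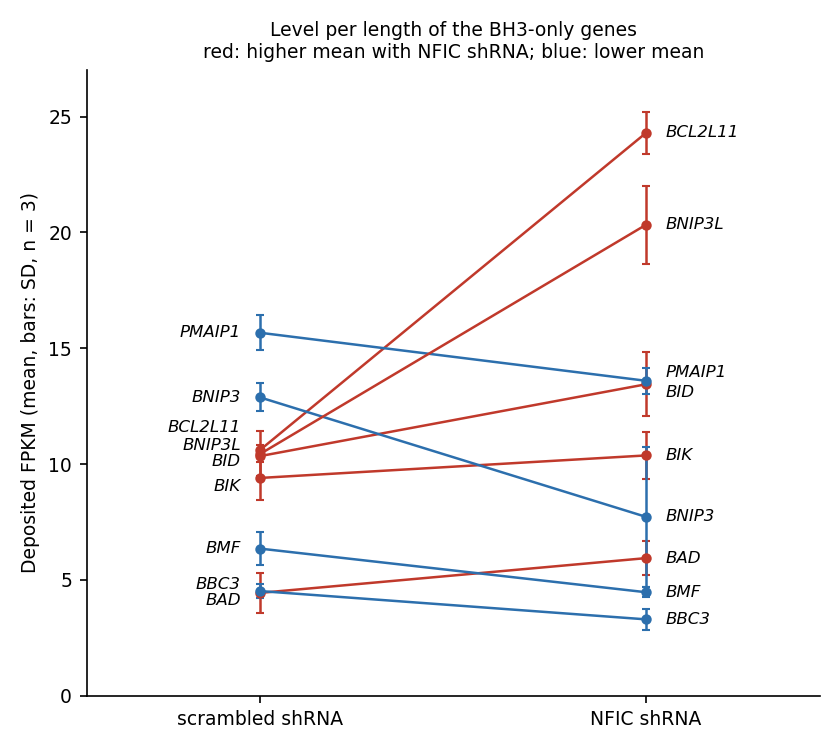
Mean deposited FPKM (vertical axis, bars SD, n = 3) of 9 BH3-only genes is joined between scrambled shRNA and NFIC shRNA, in red where the mean is higher and in blue where it is lower with NFIC shRNA. BCL2L11 and BNIP3L leave a cluster near 10 FPKM and become the most abundant, at 24.3 and 20.3 FPKM, while PMAIP1 and BNIP3 lose their lead.

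Within a sample, ratios of transcripts do not depend on scaling between samples. The ratio of BCL2L11 to BCL2 in FPKM was 1.18, 1.104 and 1.24 in controls, against 3.44, 3.49 and 4.01 with NFIC shRNA. BCL2L11 over MCL1 was 0.138 to 0.142 in scrambled and 0.225 to 0.233 in NFIC shRNA samples, and BCL2L11 over BCL2A1 averaged 3.83 ± 0.372 and 7.90 ± 0.954 (SD, n = 3). BIM transcripts were therefore higher in every knockdown sample relative to each of these partners. Set against all 6 antiapoptotic genes, the 10 BH3-only genes together did not follow. Their summed FPKM was higher with NFIC shRNA, at 103 ± 4.84 against 84.7 ± 1.57 (SD, n = 3), but so was that of the 6 antiapoptotic genes, at 132 ± 1.67 against 102 ± 1.52, most of it from MCL1 at 106 and 75.9 FPKM. The ratio of the sums was 0.831 ± 0.0144 in scrambled and 0.786 ± 0.0288 in NFIC shRNA samples (SD, n = 3), with separate ranges. This ratio mainly reflects MCL1, and its fall rests on that gene. The other antiapoptotic genes together did not rise, whereas the BH3-only sum did. A ratio without MCL1 was not computed. Of the other antiapoptotic genes, mean FPKM of BCL2 fell from 9.07 to 6.68 and of BCL2L2 from 6.55 to 5.78. That of BCL2L1 rose from 7.63 to 9.71 and of BCL2A1 from 2.79 to 3.09. BNIP3L over BNIP3 was 0.689, 0.9003 and 0.854 in controls, against 3.13, 1.80 and 3.71 with NFIC shRNA, so that the more abundant of the paralogs changed from BNIP3 to BNIP3L in all 3 replicates.

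**Figure D5:**
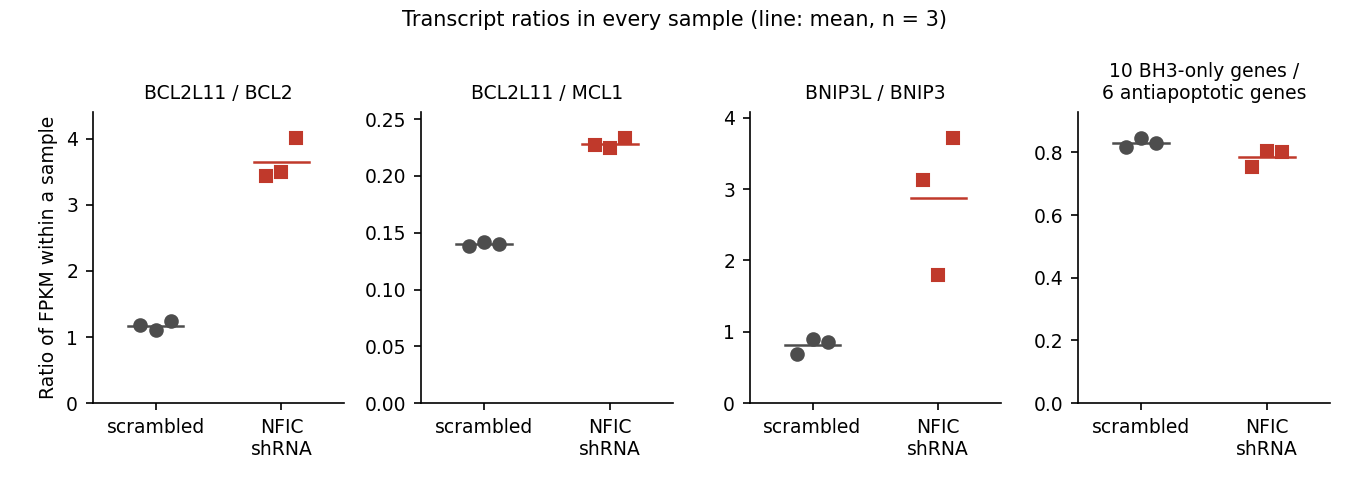
Each panel plots 1 ratio of deposited FPKM within a sample on its own vertical axis from 0, with points for the 3 scrambled (grey) and 3 NFIC shRNA (red) samples and a line for the mean. BCL2L11 over BCL2 and over MCL1 and BNIP3L over BNIP3 are higher in every NFIC shRNA sample, and the ratio of all 10 BH3-only to 6 antiapoptotic genes is lower in each, at 0.753 to 0.803 against 0.817 to 0.846. MCL1 makes up most of the antiapoptotic sum in that last ratio, and the lower ratio rests on that gene.

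Proteins that regulate or process BH3-only proteins are listed as upstream handlers, and of 33 such genes tested 18 rose, 3 fell and 12 were not called, beside 29.6% of all tested genes higher and 30.3% lower, with a median log2 fold change of 0.207 (-0.0113 over all tested genes). CTSD, a lysosomal protease that can cut BID, rose by 1.13 and YWHAZ, a 14-3-3 protein that sequesters BAD, by 0.58 (edgeR adjusted p of 3.23e-11 and 3.58e-08). CTSL, another lysosomal protease, fell by 0.82, CASP2, a caspase that cleaves BID, by 0.36 and E2F1, a transcription factor for several BH3-only genes, by 0.33 on the log2 scale. FOXO target genes, the group to which BCL2L11 belongs by textbook knowledge, had 8 higher and 2 lower members of 17 tested and a median of 0.27, against the same shares of all genes. The death ligand TNFSF10 rose by 1.70, the cell cycle inhibitor CDKN1B by 0.81 and the autophagy gene GABARAPL1 by 0.93. CAT, which encodes catalase, and TXNIP fell by 0.64 and 1.28 on the log2 scale.

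Genes of the p53 pathway, which is the usual inducer of BBC3 and PMAIP1, had 12 higher and 5 lower members of 23 tested, with a median of 0.24, while BBC3 and PMAIP1 fell. Of all tested genes 29.6% were higher and 30.3% lower. TP53INP1, PERP and CDKN1A rose by 1.30, 1.18 and 0.90 (edgeR adjusted p of 3.76e-10, 1.73e-09 and 1.46e-09). CCNG1, FDXR and AEN fell by 0.60, 0.77 and 0.29 on the log2 scale. THP-1 cells are known to lack functional p53. Of 19 tested genes of the integrated and endoplasmic reticulum stress responses, which can induce PMAIP1, BBC3 and BCL2L11, 6 rose and 6 fell, with a median of -0.00249, which is close to the shares over all tested genes (29.6% and 30.3%). DDIT3, which encodes the stress factor CHOP, rose by 0.46, VLDLR by 0.63 and the chaperone DNAJB9 by 0.76. DDIT4 and CHAC1 fell by 1.22 and 0.88 on the log2 scale. NUPR1 fell from 102, 68 and 106 counts in controls to 2, 2 and 8, of which 2 samples are under the floor of 3 counts. Its fitted log2 fold change of -4.48 is therefore imprecise, and it was -5.41 without NFIC shRNA replicate 3.

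Other mitophagy receptors and adaptors moved mostly in the direction of BNIP3L. Of 15 tested genes 11 rose, 1 fell and 3 were not called, with a median log2 fold change of 0.511 beside -0.0113 for all tested genes and 29.6% of these called higher. The autophagy adaptors OPTN, CALCOCO2 and NBR1 rose by 1.11, 0.94 and 0.66 (edgeR adjusted p of 2.18e-09, 5.09e-10 and 3.01e-08). GABARAPL1, which is also counted among the FOXO targets, encodes a protein that binds such receptors on the autophagosome. PHB2, a receptor of the inner mitochondrial membrane, fell from 202 to 82.1 CPM, a log2 fold change of -1.30 (edgeR adjusted p = 3.60e-12). FUNDC1 was not analysed here.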

How the data were processed

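RNA of 6 samples of sorted THP-1 cells was measured, 3 with scrambled shRNA and 3 with NFIC shRNA, grouped by the labels, which name the control a scrambled shRNA (the methods describe its vector as GFP only). Per the study's methods and processing notes, the authors trimmed reads with Trim Galore, checked them with FastQC, mapped them to GRCh38 with STAR and deposited unnormalized counts per gene from featureCounts with the Ensembl release 96 annotation. Tool versions and the strand setting of the counting are not given in the sources used here. The deposited normalized signal is the count divided by 1 DESeq2 size factor per sample, and it was not needed here. For FPKM, the authors divided that signal by the gene length and by 1 total common to all samples, and the deposited values served to compare levels between genes. Columns with the authors' own DESeq2 comparison (log2 fold changes and p-values) were not used.

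All 33981 genes entered edgeR 4.0.16 (R 4.3.3) with TMM normalization, its low-count filter, robust dispersions and the quasi-likelihood test without a block, and p was adjusted by the Benjamini-Hochberg method over the 19182 genes tested. Standard errors are the absolute log2 fold change divided by the square root of F, and 95% intervals use the moderated degrees of freedom. Exact permutation of 3 against 3 samples cannot reach a two-sided p of 0.05. Replicates of a group differed by more than sampling noise. Simulated counts with 200 changed genes of 19182 were used to test the fit. There edgeR called 81.5% of the changed genes, and 6.86% of its calls were unchanged genes. The simulation changed a far smaller share than the 59.9% called in the data, so it does not test the fit at that share. Alternatives were other scalings, DESeq2 1.42.0, other filters, a threshold of 0.01, replicate blocks and leaving out each sample. The BH3-only genes and the other lists were chosen with earlier results of these data known. The text names every BH3-only gene, NFIC, all antiapoptotic and effector genes, up to 3 higher and 3 lower genes of each other list by smallest adjusted p, and genes that overlap a BH3-only gene. A gene that the rule picks is not reported here. CSF1R and CD36 fall outside this rule and were added once their values had been seen. Gene positions are from GENCODE release 44 and promoters from RefSeq, and the target of the hairpin from the supplementary methods of the study. Protein sequences were not used here.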

Additional observations from a re-analysis of the deposited data

How the results depend on the processing

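BCL2L11, BNIP3L, BID, BMF and BBC3 kept direction and call in every alternative run, and no BH3-only gene or list gene named by the rule reversed. CSF1R, CD36 and the genes overlapping a BH3-only gene were not run under the alternatives. PMAIP1 lost its call only at an adjusted p under 0.01 (0.0117), and BAD there and in 2 of the fits that left out a sample. BNIP3 was not called in the reported fit (-0.75, edgeR adjusted p = 0.053) and was called with DESeq2, with at least 10 counts in every sample (-0.76, edgeR adjusted p = 0.0406), without NFIC shRNA replicate 1 or 2, and in the fit with replicate number as block (-0.80, edgeR adjusted p = 0.000742). The cause was not tested. The block by replicate number called 10983 genes and the block by title number 12099, against 11486 without a block. Same-numbered samples did not deviate together (correlations across genes of 0.0563, -0.0862 and -0.0446, and 1 of 6 samples closest to its own number), so the numbers were not treated as pairs; by title numbers the values were 0.0563, 0.145 and 0.0267, with 4 of 6. BAX, BCL2L2, BAK1 and MXI1 lost their calls in several alternatives, and GP9 with DESeq2. The number of antiapoptotic and effector genes that fell was 1 instead of 3 with DESeq2 and at an adjusted p under 0.01, and 1 to 3 when each sample was left out. That of p53 pathway genes was 3 instead of 5 with DESeq2 and at 0.01, and 3 to 4 when each sample was left out. That of upstream handlers was 6 instead of 3 with upper-quartile normalization, which moved the median of all genes to -0.068. Without BNIP3 and BNIP3L the ratio of BH3-only to antiapoptotic FPKM was 0.602 in scrambled and 0.573 in NFIC shRNA samples. Leaving aside the 0.01 threshold, the 9 tested BH3-only genes stayed on their side of the threshold in 119 of 126 comparisons with an alternative, and the other 7 are the 5 of BNIP3 and 2 of BAD.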
